A study of Mus musculus with 4 samples.

Results

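The hedgehog ligand Shh, its receptors and co-receptors and its effectors were followed in embryonic mouse epidermis carrying a stabilised form of beta-catenin. The members were 9 genes, Shh, Ptch1, Smo, Gas1, Cdon, Hhip, Gli1, Gli2 and Gli3, and every probe set that the platform annotation gives to exactly 1 of them was taken, which made 23 probe sets of the 45037 on the array that are not controls. A probe set is a group of short oligonucleotides that together read 1 transcript. The samples were mutant epidermis from 2 embryos carrying KRT14-Cre and the Ctnnb1(Ex3)fl/+ genotype, and control epidermis from 2 littermates whose genotype the labels do not state. All 4 embryos were at E15.5, and epidermis was parted from dermis of dorsal skin with dispase. Per its name, the Cre is driven by keratin 14 sequences, so exon 3 of 1 Ctnnb1 allele is removed in keratin 14-expressing epithelium, and with it the sites that mark beta-catenin for destruction. One array was hybridised per embryo, so each value below rests on 2 mutant and 2 control arrays, and the number of arrays limits the precision.

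In hedgehog signalling the secreted ligand binds Patched receptors and thereby frees Smoothened, which acts through the primary cilium on the Gli transcription factors. Gas1, Cdon and Boc are co-receptors that help Patched bind the ligand, whereas Hhip binds the ligand without passing on a signal. Ptch1, Gli1 and Hhip are themselves transcribed in response to the pathway and are commonly used as its readouts. In developing skin Shh is made by the epithelium of the hair placode and bud, and it acts on that epithelium and on the dermal cells beneath it.

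The ligand rose far more than any of its receptors or targets measured here. Shh signal was 8.40-fold higher in mutant than in control epidermis, while Ptch1 was 1.47-fold higher and Gli1 did not pass the test. The co-receptors went the other way: Gas1 was 11.4-fold and Cdon 2.87-fold lower in the mutant. The folds are those of the brightest probe set of each gene. In bulk tissue, fewer cells of a type and less RNA per cell cannot be told apart. Of the 23 probe sets, 18 from 8 genes passed a filter on dim signal and were tested with limma, a linear model that pools the spread over all probe sets. Of these 18, 7 were higher, 4 were lower and 7 did not pass at an adjusted p of 0.05. Over all 28434 tested probe sets 39.4% were called, 18.9% upward and 20.5% downward, so such counts among the members are read against a background in which change was common. Upward calls were 48.0% of all calls, and 38.7% with median centring. By the brightest probe set, 4 of the 8 genes were higher, 2 were lower and 2 did not pass, where 45.1% of all 12469 tested genes were called, 20.6% as higher and 24.5% as lower. The median log2 difference was 0.35 over the 8 genes and -0.06 over all tested genes. The groups did not overlap for 16 of the 18 tested probe sets, against 71.7% of all tested probe sets.

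**Figure D1:**
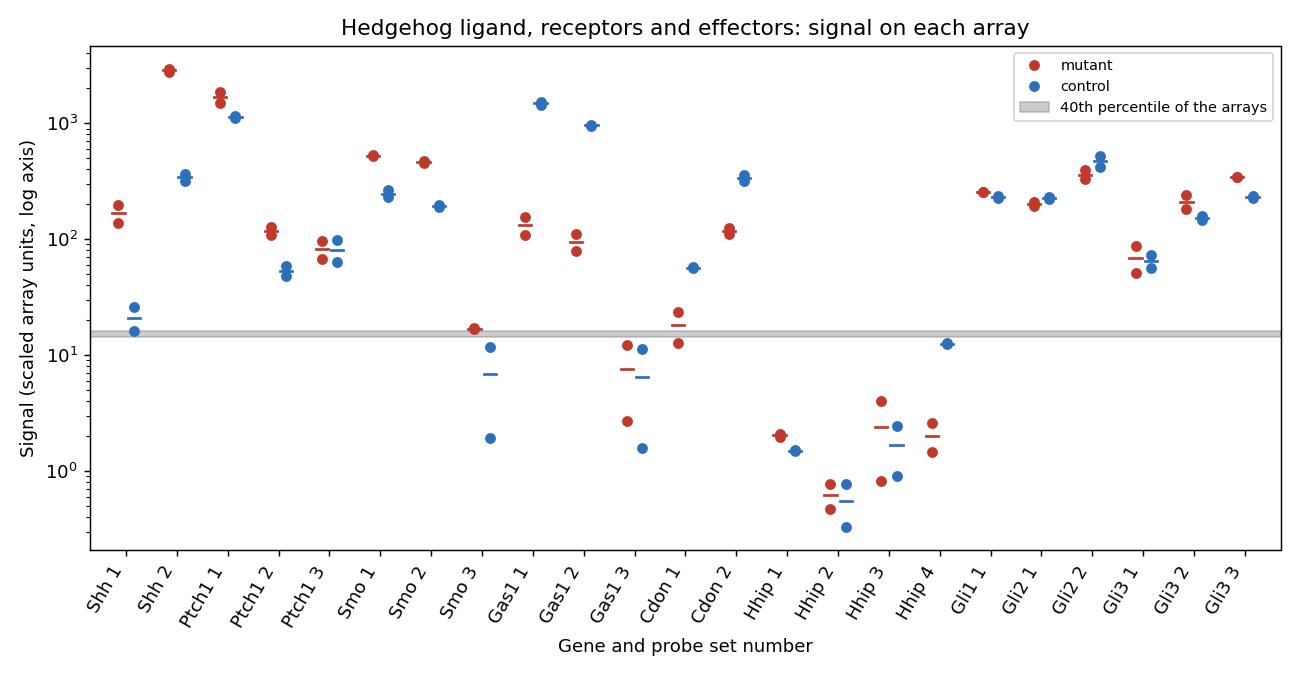
Signal of each of the 23 probe sets (log axis, scaled array units), with mutant points left of control points and short lines at the group means; the grey band spans the 40th percentiles of the 4 arrays (14.4 to 16.1). Shh probe set 2 lies near 2867 in mutants and 342 in controls, and all 4 Hhip probe sets lie below the band.

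Promoter sequence was available in RefSeq's table (GRCm38.p6) for 7 of the 9 genes, and 3 of the windows are shown because they belong to the co-receptors that were lower together and to the receptor that is also a target. Each window runs from 250 bases before to 50 bases after the annotated start of the gene. Capitals mark CAAAG or its reverse complement CTTTG, the core shared by binding sites of the TCF/LEF factors through which beta-catenin acts. The windows lie at chr13:60177486-60177785 for Gas1 (minus strand), chr9:35451826-35452125 for Cdon (plus strand) and chr13:63565686-63565985 for Ptch1 (minus strand).
Gas1: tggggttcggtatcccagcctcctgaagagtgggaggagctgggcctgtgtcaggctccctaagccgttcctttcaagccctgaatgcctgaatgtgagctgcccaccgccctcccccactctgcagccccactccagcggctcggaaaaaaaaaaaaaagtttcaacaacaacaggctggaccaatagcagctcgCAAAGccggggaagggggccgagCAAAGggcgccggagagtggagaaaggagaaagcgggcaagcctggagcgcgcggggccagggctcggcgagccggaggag
Cdon: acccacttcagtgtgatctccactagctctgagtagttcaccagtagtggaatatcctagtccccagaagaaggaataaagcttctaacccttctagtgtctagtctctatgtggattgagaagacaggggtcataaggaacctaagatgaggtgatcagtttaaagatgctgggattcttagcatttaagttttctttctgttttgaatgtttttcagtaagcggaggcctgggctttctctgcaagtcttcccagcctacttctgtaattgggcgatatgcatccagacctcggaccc
Ptch1: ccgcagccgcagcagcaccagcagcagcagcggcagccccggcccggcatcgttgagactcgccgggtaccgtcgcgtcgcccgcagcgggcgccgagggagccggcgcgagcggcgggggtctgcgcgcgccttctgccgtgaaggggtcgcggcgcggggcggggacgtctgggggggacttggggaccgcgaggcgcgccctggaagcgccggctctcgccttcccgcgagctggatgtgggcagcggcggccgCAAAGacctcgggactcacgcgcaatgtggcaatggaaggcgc
The core occurred 2 times before the start of Gas1, 31 and 54 bases upstream, once in Ptch1, 7 bases after its start, and 0 times in Cdon. It was present in 3 of the 7 member windows (Gas1, Ptch1 and Smo) and in 53.9% of all 32851 windows, with both strands searched. GACCACCCA, the nonamer bound by Gli factors, was present in 0 of the 7 windows and in 0.253% of all windows. These matches describe letters in the windows and were not tested against binding.

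Shh, the ligand, was read by 2 probe sets. The brighter (probe set 2, 1436869_at) had signals of 2791 and 2944 in mutants, against 319 and 366 in controls. It rose by 3.07 ± 0.10 in log2 units (± is the SE of the limma fit here and below, n = 2 embryos in each group; limma adjusted p = 8.58e-07), and 97.5% of all tested probe sets had a lower value. On this probe set the arrays of a group differed by at most 1.15-fold, so the change was far larger than the spread between embryos. The dimmer (probe set 1, 1427571_at) gave 137 and 196 in mutants, against 15.96 and 26.1 in controls, whose 40th percentiles were 14.4 and 14.6. It was 8.03-fold higher in the mutant (log2 95% interval 2.31 to 3.70, limma adjusted p = 1.75e-04), with control 1 close to background. Both probe sets thus gave a rise of about the same size, and both groups stood apart on each. In the authors' deposited table, which was made from GCRMA values, they were 15.48-fold (probe set 1) and 11.8-fold (probe set 2) higher in the mutant.

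Ptch1, the receptor of the ligand and a target of the pathway, had 3 tested probe sets that did not give 1 answer. The brightest (probe set 1, 1428853_at) had 1848 and 1496 in mutants, against 1106 and 1153 in controls. It rose by 0.56 ± 0.11 (limma adjusted p = 6.64e-03, 95% interval 0.29 to 0.82), with both mutants above both controls. That call was lost in the fit without the intensity trend (adjusted p = 0.0718). Probe set 2 (1439663_at) had 109 and 127 in mutants, against 47.9 and 58.9 in controls, a rise of 1.15 ± 0.19 (adjusted p = 2.70e-03). Probe set 3 (1450824_at) had 96.2 and 67.2 in mutants, against 63.9 and 98.5 in controls, with the groups overlapping. Its log2 difference was 0.02 with a 95% interval of -0.60 to 0.64, which still holds the value of probe set 1 but not that of probe set 2. In the authors' deposited table only probe set 2 was listed, at 2.11-fold higher in the mutant; that table holds probe sets that differed at least 2-fold. Leaving out 1 array at a time moved probe set 1 between 0.41 and 0.71.

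Smo, the membrane protein that Patched holds in check, was higher in the mutant. Probe set 1 (1427048_at) had 518 and 534 in mutants, against 230 and 264 in controls, and rose by 1.09 ± 0.12 (limma adjusted p = 2.46e-04). Probe set 2 (1427049_s_at) had 452 and 469 in mutants, against 197 and 190 in controls, and rose by 1.25 ± 0.11 (adjusted p = 9.38e-05). The groups did not overlap on either, but both probe sets were designed on the same EST sequence and are not independent readings. Probe set 3 (1442215_at) had 16.7 and 17.0 in mutants, little above their arrays' 40th percentiles, and 11.8 and 1.91 in controls, below it. It passed the filter through the mutant arrays alone, its bound was at least 1.16-fold, and it did not pass the test (adjusted p = 0.159). The authors' deposited table gave 2.28-fold and 2.93-fold higher in the mutant for probe sets 1 and 2.

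Gas1, a membrane-anchored co-receptor, had the largest change among the members. Probe set 1 (1416855_at) had 109 and 156 in mutants, against 1426 and 1535 in controls, and fell by 3.51 ± 0.17 on the log2 scale (limma adjusted p = 4.59e-06). Probe set 2 (1448494_at) had 79.4 and 110 in mutants, against 948 and 968 in controls, and fell by 3.36 ± 0.16 (adjusted p = 4.59e-06). All mutant signals were still above the arrays' 40th percentiles, so Gas1 remained measurable in mutant epidermis, and only 0.953% of tested probe sets had a lower value than probe set 1. Probe set 3 was dim, with 12.3 and 2.71 in mutants and 1.59 and 11.3 in controls, and was not tested. In the authors' deposited table the falls were 24.7-fold and 33.2-fold, more than the 11.4-fold and 10.3-fold found here from the deposited signals.

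Cdon, an immunoglobulin superfamily co-receptor, was also lower. Probe set 2 (1434957_at) had 124 and 111 in mutants, against 359 and 316 in controls, and fell by 1.52 ± 0.14 (limma adjusted p = 1.04e-04). Probe set 1 (1421452_at) had 23.4 and 12.6 in mutants, against 56.8 and 57.0 in controls, and fell by 1.73 ± 0.36 (adjusted p = 6.74e-03). The second mutant lay below its array's percentile on probe set 1, so the size of that fall is uncertain. The authors' deposited table gave 4.17-fold and 3.79-fold lower values for probe sets 2 and 1. Boc, another co-receptor and not one of the 9 members, had 63.6 and 78.2 in mutants, against 184 and 230 in controls, and fell by 1.54 ± 0.18 (limma adjusted p = 4.41e-04). A second probe set of Boc fell by 1.11 ± 0.21 (adjusted p = 4.34e-03), and its remaining probe set was dim and not tested. All 3 co-receptors were therefore lower on each of their tested probe sets.

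**Figure D2:**
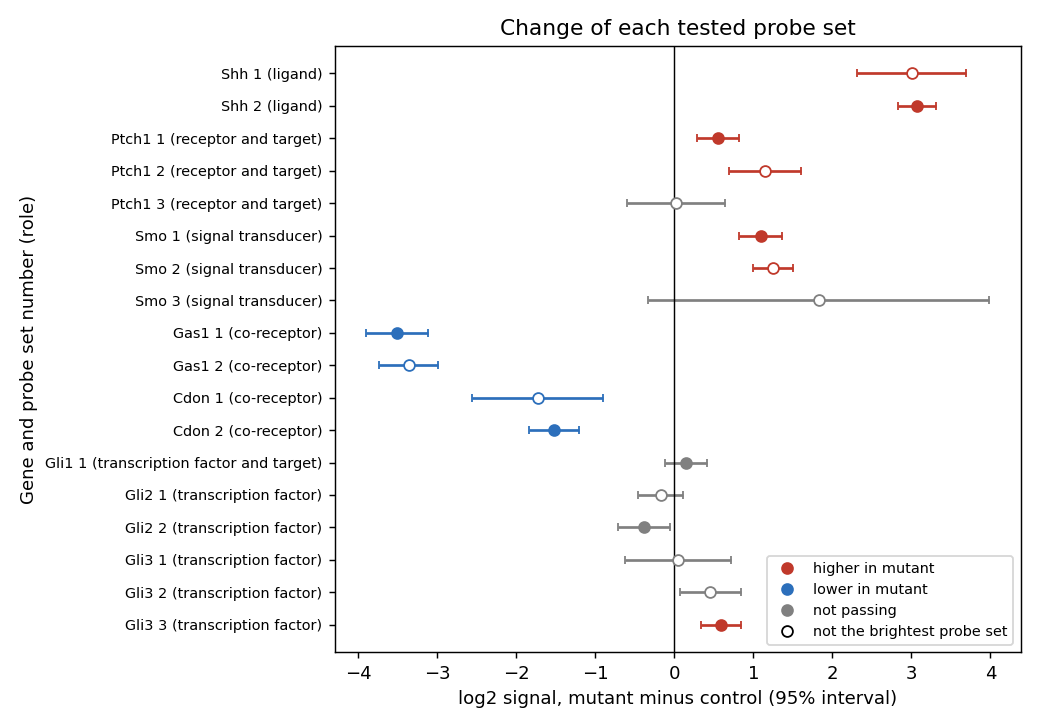
Log2 difference, mutant minus control, of the 18 tested probe sets with 95% intervals of the limma fit; filled points are the brightest probe set of a gene. Shh lies near 3 and Gas1 near the opposite end (-3.51 and -3.36). The Gli probe sets lie between -0.38 (Gli2) and 0.59 (Gli3), with Gli1 at 0.15.

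Hhip, the decoy receptor and a pathway target, was not well above background on any array. Its 4 probe sets ranged over 0.465 to 3.98 in mutants and 0.326 to 12.6 in controls, and each lay below the 40th percentile of its array. One of them (1455277_at) had 2.59 and 1.45 in mutants and 12.5 and 12.6 in controls, all below that percentile, so no fold is given. A change of Hhip in either direction was not detectable with these probe sets.

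The Gli genes moved little in comparison with the ligand. Gli1, a transcriptional activator and the most widely used target of the pathway, had 257 and 256 in mutants, against 237 and 226 in controls, on its 1 probe set (1449058_at). Both mutants were above both controls, but the log2 difference of 0.15 ± 0.12 did not pass (limma adjusted p = 0.351), and its 95% interval was -0.12 to 0.41. The interval leaves room for a small rise of Gli1 and lies far below the change of Shh. Gli2, the main activator in skin epithelium, had 394 and 327 in mutants, against 519 and 423 in controls, on its brighter probe set (1459211_at). That difference of -0.38 ± 0.14 did not pass (adjusted p = 0.0682), though it passed when control 2 was left out (adjusted p = 0.0390) or mutant 1 was left out (adjusted p = 0.0359), with median centring (adjusted p = 0.0262) and with the replicate number as a block (adjusted p = 0.0218). The other Gli2 probe set (1446086_s_at), designed on the same EST, had 193 and 208 in mutants, against 231 and 220 in controls, and did not pass either (-0.17 ± 0.12, adjusted p = 0.307).

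Gli3, which acts mainly as a repressor when the ligand is absent, had 3 tested probe sets of unequal behaviour. The brightest (probe set 3, 1456067_at) had 346 and 347 in mutants, against 236 and 225 in controls, and rose by 0.59 ± 0.11 (limma adjusted p = 4.42e-03). Probe set 2 (1455154_at) had 180 and 240 in mutants, against 157 and 147 in controls, with a difference of 0.45 ± 0.17 that did not pass (adjusted p = 0.0629). It passed without mutant 1 (adjusted p = 0.0174) and with the replicate block (adjusted p = 0.0450). Probe set 1 (1450525_at) had 50.7 and 86.9 in mutants, against 56.6 and 72.8 in controls, overlapping groups with a difference of 0.05 ± 0.29 (adjusted p = 0.912).

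The ligand was then set against each other member on the same arrays, as the log2 ratio of Shh to that gene, which compares changes and not levels. Relative to Ptch1 the ratio was 0.59 and 0.98 in mutants, against -1.80 and -1.66 in controls, so Shh had gained 2.51 on the log2 scale. Relative to Gli1 the gain was 2.92, relative to Smo 1.98, relative to Gli3 2.48 and relative to Gli2 3.45. Relative to the co-receptors, which fell, it was 4.59 for Cdon and 6.58 for Gas1. In all 7 comparisons the groups stood apart by far more than the arrays within a group, which differed by at most 0.49. All 7 ratios hold the same Shh reading, so they are not independent of each other. Permuting the group labels exactly (two-sided) gave p = 0.333 for each, also after adjustment over the 7, and with 2 arrays in each group no smaller p can be reached.

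**Figure D3:**
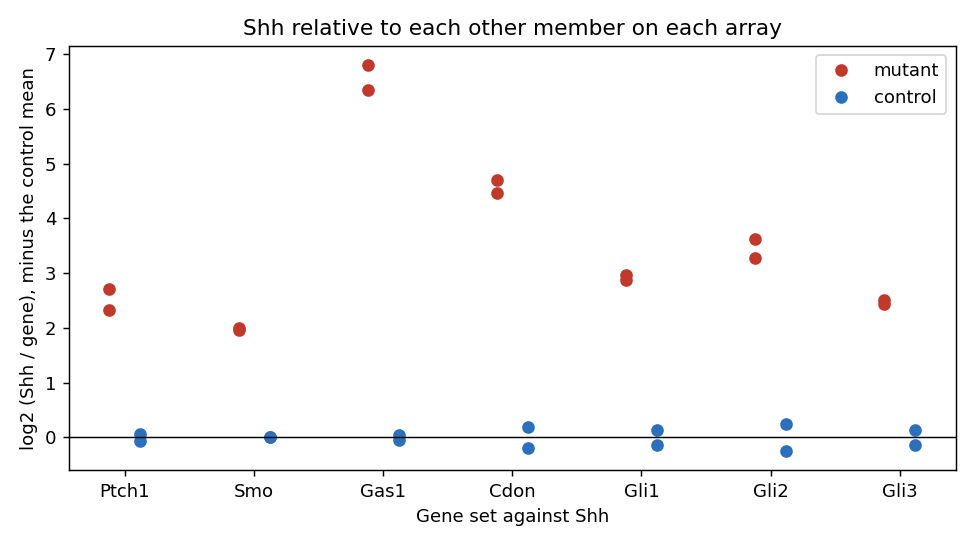
Log2 ratio of Shh to each other tested member on each array, minus the mean of the 2 controls, with mutant points left of control points. Mutant points lie from about 2 (Smo) to above 6 (Gas1), and control points within 0.25 of the zero line.

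The labels and the make-up of the tissue were checked on the same arrays. Ctnnb1 itself, on its brightest probe set, had 6907 and 7323 in mutants, against 5311 and 4940 in controls. It rose by 0.47 ± 0.08 (limma adjusted p = 3.06e-03), a call lost without the intensity trend (adjusted p = 0.0610). The dimmer Ctnnb1 probe sets rose by 0.89 ± 0.08 (adjusted p = 1.20e-04) and 0.72 ± 0.08 (adjusted p = 3.05e-04). The files do not place its probe sets relative to exon 3, so this is no check of the deletion. Axin2, a direct target of beta-catenin, had 2540 and 2803 in mutants, against 522 and 555 in controls, and rose by 2.31 ± 0.09 (adjusted p = 2.38e-06). Krt14, whose sequences drive the Cre, was called lower on each of its probe sets. The dimmer ones fell by 1.75 ± 0.32 (adjusted p = 3.66e-03) and 0.45 ± 0.13 (adjusted p = 0.0242). The brightest fell by 0.35 ± 0.10 (adjusted p = 0.0303). That call was lost in 5 of 11 alternatives (no filter, no trend, and without control 1, control 2 or mutant 1, adjusted p = 0.0672 to 0.164), and the value was -0.21 without mutant 1. Arrays correlated over tested probe sets at 0.970 to 0.972 within groups and at 0.813 to 0.815 between groups, a description across probe sets. All 10 keratinocyte markers were above the 40th percentile in both groups, with 2 higher, 6 lower and 2 not passing, and their summed signal was 21493 and 23053 in mutants, against 45096 and 45374 in controls. The suprabasal keratins made up most of that gap: Krt1 had 484 and 391 in mutants, against 6469 and 7295 in controls, and Krt10 had 1027 and 835 in mutants, against 10965 and 11014 in controls. The other 8 summed to 19982 and 21828 in mutants, against 27662 and 27065 in controls. Among them Krt5 and Trp63 of the basal layer did not pass by the brightest probe set (-0.15 ± 0.09 and -0.04 ± 0.10). Trp63 was not uniform: of its 4 tested probe sets, 1 was called higher and 2 lower. The integrins Itga6 and Itgb4 rose by 0.72 ± 0.11 and 0.62 ± 0.13, the call of Itgb4 being lost without the intensity trend.

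Because hedgehog receptors and targets are also made by dermal cells, markers of dermis stand here beside the co-receptors. Of 11 dermal fibroblast markers with a probe set, 8 were tested, of which 1 was higher, 3 were lower and 4 did not pass, and their summed signal was 4619 and 5172 in mutants, against 8103 and 9554 in controls. Postn, a secreted matrix protein, made up nearly the whole of that gap, with 11.3 and 29.6 in mutants and 3590 and 4302 in controls. The other 10 summed to 4607 and 5142 in mutants, against 4513 and 5252 in controls. Dcn made up most of these sums, with 3444 and 3704 in mutants and 2908 and 2900 in controls. The median log2 difference of the 8 tested markers was -0.75. Col5a1, a fibrillar collagen, had 124 and 191 in mutants, against 340 and 351 in controls, and fell by 1.17 ± 0.20 (limma adjusted p = 2.75e-03), on all 3 of its probe sets. Col1a2 also fell (-1.88 ± 0.49, adjusted p = 0.0189), a call lost without the trend, without control 2 and without mutant 1 (adjusted p = 0.0554 to 0.111; -1.04 without control 2). Dcn, the marker that was higher, rose by 0.30 ± 0.08 (adjusted p = 0.0225), and its call was lost in 6 of 11 alternatives, each array but mutant 1 left out among them. Some markers varied widely between embryos: Col1a1 had 6.65 and 63.2 in mutants and 1.84 and 107 in controls, and Col3a1 had 26.6 and 27.8 in mutants and 22.9 and 381 in controls. Without control 1, Col3a1 was called lower (adjusted p = 4.47e-05). Between the controls, Gas1 differed by 1.08-fold, Cdon by 1.14-fold and Boc by 1.26-fold. The markers Dcn, Col5a1, Vim and Postn differed by 1.003-fold to 1.198-fold. The other tested markers differed more, each being higher in control 2. Col1a2 differed by 3.19-fold, Lum by 4.77-fold, Col3a1 by 16.6-fold and Col1a1 by 57.9-fold, with control 1 below its 40th percentile for Lum and Col1a1. The fibroblast markers Pdgfra and Prrx1 were below the percentile on all 4 arrays. Of 7 markers of the dermal condensate and papilla with a probe set, 5 were dim, Crabp1 was higher and Cxcr4 was lower in the mutant. Melanocyte markers were higher in the mutant, 6 of 6, with summed signals of 4539 and 5641 in mutants and 1234 and 1250 in controls. Of Merkel cells 2 markers were tested, of endothelium 1, of immune cells 2 and of skeletal muscle 2, and limma called 0 of them; at an unadjusted p under 0.05 there was 1, a Merkel cell marker that was lower. Krt8, listed for Merkel cells, was called lower with median centring and without mutant 1, and Csf1r (immune) without mutant 2. Of the other Merkel cell markers Krt20, Isl1 and Sox2 were dim and Atoh1 did not pass, so Krt8 alone does not read that cell type. Of 2 tested Schwann cell markers Sox10 was higher and Erbb3 lower, the call of Erbb3 being lost without the trend and without control 1, control 2 or mutant 2 (adjusted p = 0.0525 to 0.113). Sox10 is the same reading as in the melanocyte markers. Limma called 1 of the 3 tested probe sets of Sox10 and 1 of the 2 of Erbb3. The Schwann cell marker S100b was dim, so Erbb3 alone does not read that cell type. The part of the cell types above in the changes of the hedgehog genes was not tested.

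**Figure D4:**
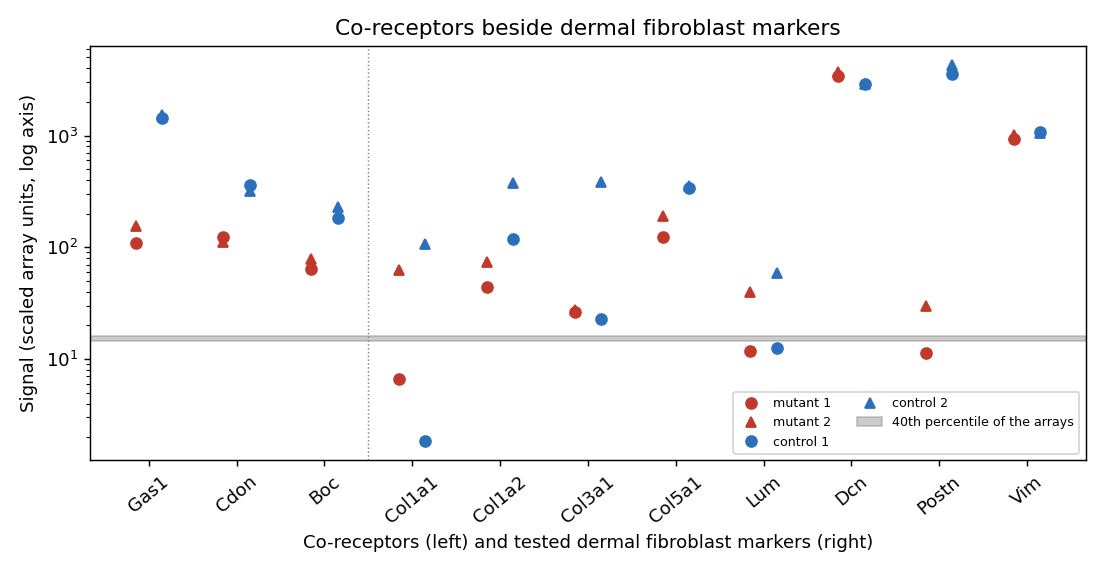
Signal (log axis, scaled array units) of the 3 co-receptors and the 8 tested dermal fibroblast markers, with mutant points left of control points. Circles are sample 1 and triangles sample 2 of each group. Gas1, Cdon, Boc, Col1a2, Col5a1 and Postn lie lower in both mutants than in both controls. Dcn and Vim lie close together on all arrays, with Dcn slightly higher and Vim slightly lower in both mutants. Col1a1 and Col3a1 are far higher in control 2 than in control 1.

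The other genes of the pathway were counted in 5 lists that hold 102 genes outside the 9 members. Of these, 82 were tested, and 24 were higher, 8 lower and 50 did not pass. That is 39.0% called, against 45.1% of all tested genes, with a median log2 difference of 0.14 against -0.06 for all genes. The lists are described by their counts alone.

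Genes for maturation and release of the ligand were mostly higher in the mutant. Of 6 tested, 5 were higher and 1 did not pass, where 20.6% of all tested genes were called higher. The 6 had a median of 0.90, and at an unadjusted p under 0.05 limma also had 5 higher and 0 lower. Scube1, of a secreted family that in zebrafish and mammals helps release the ligand, had 293 and 263 in mutants, against 55.0 and 29.2 in controls, and rose by 2.79 ± 0.28 (limma adjusted p = 1.89e-04). The cell surface glypicans Gpc4 and Gpc3 rose by 0.88 ± 0.11 and 0.66 ± 0.11. Scube3 rose by 0.99 ± 0.24, a call lost without control 2 (adjusted p = 0.0707) and without mutant 2 (adjusted p = 0.0624). Hhat, which attaches palmitate to the ligand, rose by 0.92 ± 0.27 on 1 probe set. That call was lost without any 1 of the 4 arrays and without the filter, and another probe set had 0.02 ± 0.34. Disp1, which exports the ligand, had a difference of 0.26 ± 0.16 and did not pass. The other hedgehog ligands Ihh and Dhh were dim and not tested.

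Of 3 tested genes of reception, Boc was lower, Mosmo was higher and Hhipl1 did not pass. Mosmo, which lowers the amount of Smoothened at the cell surface, rose by 0.64 ± 0.13 (limma adjusted p = 5.70e-03). It was called on 1 of its 2 tested probe sets. Of 25 tested genes of transduction inside the cell, 7 were higher and 18 did not pass, with a median of 0.15. At an unadjusted p under 0.05 limma had 9 higher and 0 lower. Over all tested genes 20.6% were called higher and 24.5% lower. Tulp3, an adaptor that carries receptors into the cilium, had 775 and 892 in mutants, against 173 and 166 in controls, and rose by 2.30 ± 0.12 (limma adjusted p = 5.48e-06), although its other probe sets had 0.50 and 0.66 and did not pass. Gpr161, a ciliary receptor that holds the pathway down through protein kinase A, rose by 1.13 ± 0.14. Prkacb, a catalytic subunit of that kinase, rose by 1.11 ± 0.11, with 2 of its 3 tested probe sets called. Csnk1e, a casein kinase, Spop, an adaptor for degradation of Gli proteins, and Dyrk2, a kinase of Gli proteins, rose by 1.83 ± 0.10, 1.40 ± 0.09 and 1.05 ± 0.10. Sufu, the cytoplasmic inhibitor of Gli proteins, named here after its values were seen, had 234 and 252 in mutants, against 215 and 222 in controls, and did not pass (0.15 ± 0.12, adjusted p = 0.348).

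Genes of the primary cilium, in which the signal is handled, did not pass for the most part. Of 34 tested, 5 were higher, 4 lower and 25 did not pass, and the median was -0.08. Among all tested genes 45.1% were called, 20.6% as higher and 24.5% as lower, so most genes did not pass there either. Several of these calls depended on the setting: Wdr19 (higher) lost its call in 6 of 10 alternatives, Mks1 (lower) in 6 of 11 and Arl3 (higher) in 4 of 11, the 3 being named after their values were seen. Ift57, a subunit of intraflagellar transport, rose by 1.74 ± 0.17 (limma adjusted p = 1.45e-04), and Bbs2 and B9d1 by 0.94 ± 0.20 and 0.83 ± 0.18. Ift52 and the transport motor Kif3a fell by 0.68 ± 0.12 and 0.64 ± 0.13, with 3 of the 4 tested Kif3a probe sets called. Ofd1 fell by 0.91 ± 0.19, a call lost without control 1 (adjusted p = 0.0569).

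Genes reported as hedgehog targets in various tissues moved in both directions. Of 14 tested, 6 were higher, 3 lower and 5 did not pass, with a median of 0.39. The shares of all tested genes were 20.6% higher and 24.5% lower. Ccnd2 and Mycn, which drive the cell cycle, rose by 0.99 ± 0.10 and 1.40 ± 0.15, with 2 of the 3 tested Mycn probe sets called. Bcl2, an inhibitor of cell death, rose by 1.69 ± 0.17, and Prdm1, a transcriptional repressor, by 2.06 ± 0.21. Krt17, a keratin of hair follicle epithelium, had 1696 and 1872 in mutants, against 812 and 864 in controls, and rose by 1.09 ± 0.09 (limma adjusted p = 8.88e-05). Igf2, a growth factor, had 444 and 503 in mutants, against 2784 and 2399 in controls, and fell by 2.45 ± 0.11 (adjusted p = 3.56e-06). The other falls, named after their values were seen, were of Sfrp1 (-2.21 ± 0.32) and Foxm1 (-0.67 ± 0.14). Foxm1 had other tested probe sets that did not pass, and its call was lost without control 1 (adjusted p = 0.0525). These genes answer to several pathways, Wnt among them. Which of these pathways their change follows cannot be told apart here and was not tested.

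**Figure D5:**
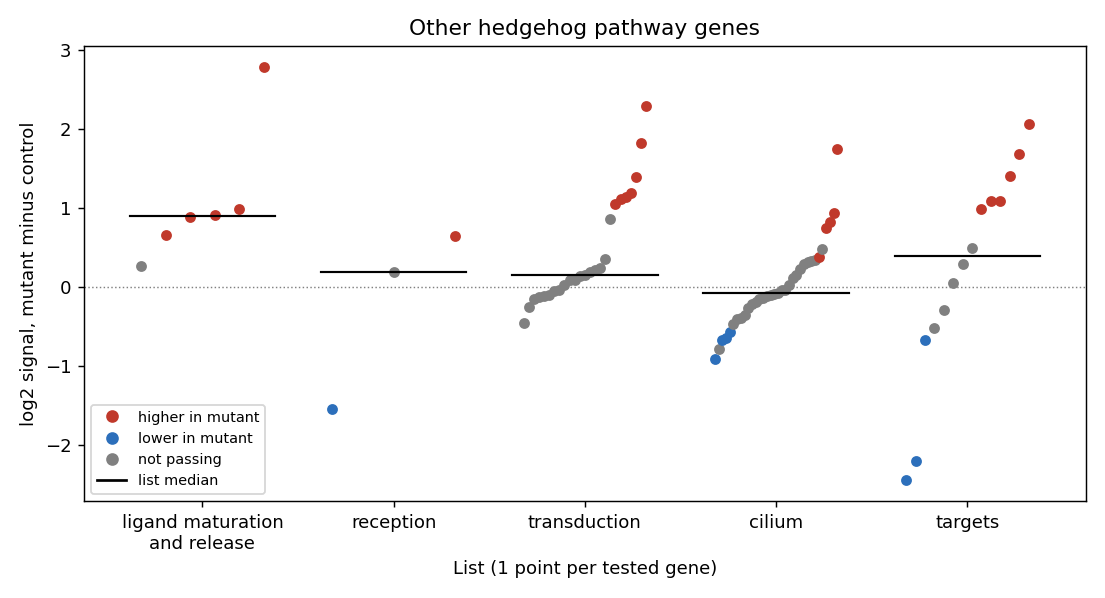
Log2 difference, mutant minus control, of each tested gene in the 5 pathway lists, by its brightest probe set, with a line at the list median. The list of ligand maturation and release has its median at 0.90 and no gene lower, and the cilium list is spread about a median of -0.08.

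Finally, the genes whose signal over the 4 arrays was most like that of Shh were found among 10665 genes above the percentile on every array, by the Euclidean distance of mean-centred log2 signals. They were Filip1l (distance 0.085), Tmtc2 (0.138), Acpp (0.186), Dlx3 (0.188) and Gpnmb (0.196). Dlx3, a homeobox factor of the follicle, had 770 and 928 in mutants, against 101 and 119 in controls. With 2 groups of 2 arrays this likeness reflects the size of the group difference above all, and no test is attached to it.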

How the data were processed

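Epidermal RNA from 2 mutant and 2 control embryos was measured on Affymetrix Mouse430_2 arrays. The submitters' processing notes name GCOS and MAS5, without versions. The signal intensity values the authors deposited are linear. Their trimmed mean (2% from either tail) came to 150 for each of the arrays, and no further normalization was applied. Per the file headers, the authors' deposited table holds ratios from GCRMA expression relative to the control mean, as fold of control over mutant, for probe sets Present on at least 2 of 4 arrays and at least 2-fold apart. Its fold was turned round here.

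Array controls (64 of 45101 probe sets) were dropped. Probe sets above their array's 40th percentile on at least 2 arrays were tested, which left 28434. Genes were named from the platform annotation, updated through Entrez identifiers (34741 of 34945 probe sets of 1 gene). The log2 of the deposited signals was fitted in limma 3.58.1 under R 4.3.3 (lmFit, then eBayes allowing an intensity trend), giving two-sided tests of mutant minus control, Benjamini-Hochberg adjusted over all tested probe sets, with a threshold of 0.05. All adjusted p-values are limma's, and the fitting code was tested on simulated data. A probe set at or below that percentile on both arrays of a group counted as not well above background there, with a fold given only as a bound. P-values rest on the spread between the 2 embryos of each group, which limma draws towards the spread of all tested probe sets at similar signal. Station, scanner and scan day were common to all 4 arrays, and the fluidics module differed for each.

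The members and lists were chosen with earlier results of these data known. The genes named were all 9 members, up to 6 genes of each pathway list by moderated t, Axin2, Ctnnb1 and Krt14, the 5 genes most like Shh, and markers beside a result.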

Additional observations from a re-analysis of the deposited data

How the results depend on the processing

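Counts of member probe sets ran from 6 to 8 higher and from 4 to 5 lower over 11 alternatives: quantile normalization, median centring, no filter on dim probe sets, a filter at the 60th percentile, no intensity trend, an offset of 16 before the logarithm, the replicate block, and leaving out each array. No called member reversed. With 1 array left out, its group's lone array was assumed to vary like the others. The rises of Shh and Smo probe sets 1 and 2 and the falls of Gas1 and Cdon passed in each alternative fit. Averaging all tested probe sets gave 0.36 for Gli3, against 0.59 for its brightest. Over all probe sets 8310 were called without the trend, against 11210, and 8162 to 9211 with an array left out. Pathway list genes counted lower were 5 without control 1, against 8, and 5 to 8 over the arrays left out; they were 12 with median centring, and those counted higher were 20 to 25 over the 11 alternatives, against 24. The settings for the pathway lists were added after seeing the data. Median centring moved the median difference of all tested probe sets by -0.11. Upward calls were 40.9% to 54.6% of all calls with an array left out. The marker sums without Postn, Krt1 and Krt10 were added after seeing the data.

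The labels number the samples in each group but do not pair them. Deviations of same-numbered arrays correlated at 0.015. With the replicate number as a block, 11525 probe sets were called, and member probe sets were 8 higher and 5 lower. Dim signal limits Hhip, for which no direction can be read.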

Other observations

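The authors' deposited table names 2 further probe sets after members. One named Shh there (1457545_at) had 27.9 and 33.0 in mutants, against 7.82 and 1.10 in controls, with both controls below their 40th percentiles, and the platform annotation gives it to another transcript, 9530036O11Rik. One named Gli3 there (1444043_at) had 40.8 and 47.9 in mutants, against 23.8 and 23.4 in controls, a log2 difference of 0.90 ± 0.28 (limma adjusted p = 0.0338), and it has no gene in the platform annotation. Neither was counted among the members.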
